A study of Rattus norvegicus with 12 samples.

Results

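Set 1 is the group of 4 arrays whose titles begin with the number 1, out of 12 arrays of primary rat astrocytes. The other 8 arrays carry the numbers 2 and 3, and each of the 3 sets holds 1 array of every treatment group. An array entered set 1 by its title alone, but the comparison was selected on measured values: the first principal component and the levels of many genes had already shown set 1 to stand apart. The level of set 1 against sets 2 and 3 is therefore a description, with no test. Cortical tissue of Sprague-Dawley rat pups aged 1 day (cerebral cortex, dissociated with trypsin) gave the astrocytes, and 2 days in serum-free MEM were used to remove microglia and cells of the meninges before the experiment. All cultures were transfected with a siRNA. The control group received control siRNA only, the IFN-γ group control siRNA and interferon-γ, the GW group control siRNA, IFN-γ and a compound named only GW, and the SHP siRNA group siRNA against SHP, IFN-γ and GW, with 3 h of treatment. SHP is an orphan nuclear receptor without a DNA-binding domain that acts as a corepressor, encoded by Nr0b2. The labels do not say whether a set is a separate culture, animal or day, so spread between sets may be technical and p-values measure only that spread. The series text names 4 arrays re-analysed from an earlier series without tying them to titles, and a difference in culture, day or array run between sets cannot be told apart here.

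IFN-γ signals through JAK kinases to transcription factors that bind GAS sequences in promoters such as that of Irf1. Type I interferons signal through a complex with STAT2 and IRF9 that binds the interferon-stimulated response element (ISRE) in promoters of antiviral genes, and IRF1 can bind related sequences. NF-κB drives cytokines, chemokines and its own inhibitors. In primary astrocyte cultures the cells most often carried along are microglia, which are strong producers of such cytokines, and meningeal fibroblasts, which make collagens.

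Values are log2 levels of 18166 genes. In the first principal component, which held 46.5% of the variance, set 1 lay between 31.0 and 40.2 and the other arrays between -24.4 and -12.6. The second component, with 18.7% of the variance, set the arrays with GW apart from those without it in each set. A gene was counted as higher in set 1 where set 1 exceeded both other sets in all 4 treatment groups and the mean of the 4 matched differences (set 1 minus the mean of sets 2 and 3) was at least 1, and as lower by the mirror rule. This gave 320 higher genes (1.76% of those measured) and 265 lower (1.46%), or 416 and 203 after centring each array on its median over all rows. The same rule applied to set 2 gave 3 genes (0.0165%) and to set 3 gave 11 (0.0606%), so sets 2 and 3 lay close to each other. Without the size limit, set 1 lay above both other sets in all 4 groups in 3448 genes and below them in 2935. Just inside the limit of 1 lay Mettl7a at 1.0031 and Lmnb1 at -1.0001, and just outside it Zfp503 at 0.9996 and Erlin2 at -0.9939.

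**Figure D1:**
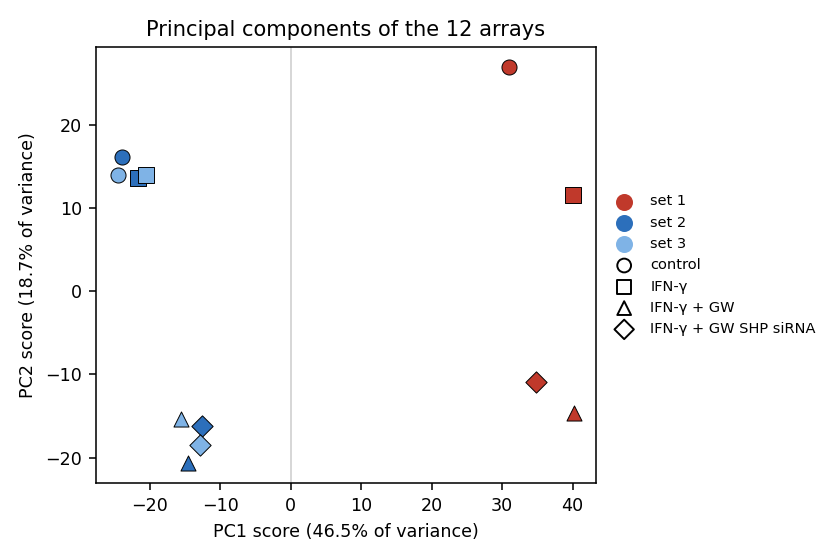
Scores of the 12 arrays on the first and second principal components of the log2 levels (axes, with the percent of variance), coloured by set and shaped by treatment group. The 4 arrays of set 1 lie between 31.0 and 40.2 on the first component and the 8 others between -24.4 and -12.6.

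The arrays were alike in their overall scale. Medians over named genes ran from 6.49 to 6.58, and the 95th percentile of 1344 olfactory and vomeronasal receptor genes, 5.34, was taken as background. A level under 5.34 is only a bound: a difference against one is given as "at least", with that side set to 5.34, and fitted estimates use the level as measured. Rows without a gene had lower medians in set 1, 4.74 to 4.87, than in sets 2 and 3, 4.94 to 5.03. Centring on the medians over all rows moved the median difference of all genes in the control group from 0.01 to 0.18. Nr0b2, the target of the SHP siRNA, was at background on all 12 arrays, 4.70 to 5.12 in set 1 and 4.59 to 5.09 in sets 2 and 3, so the knockdown could not be checked.

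Promoters of genes that carry the contrast between the sets are shown from RefSeq, build GRCr8, as 250 bases before to 50 after the start of the gene, on the strand of the gene. Capitals mark matches to the ISRE core GAAANNGAA, the GAS core TTCNNNGAA and the NF-κB core, on either strand. Ifit3, an antiviral gene, and Irf7, of the IRF family, stood at a plateau in set 1. Irf1 was higher with IFN-γ in every set, Irf8 mainly in sets 2 and 3, and Ccl20 and Il6 in set 1. The regions are chr1:241527076-241527375, plus strand for Ifit3, chr1:205799974-205800273, minus strand for Irf7, chr10:38417685-38417984, plus strand for Irf1, chr19:65699034-65699333, plus strand for Irf8, chr9:91836909-91837208, plus strand for Ccl20, and chr4:5894526-5894825, minus strand for Il6.
Ifit3: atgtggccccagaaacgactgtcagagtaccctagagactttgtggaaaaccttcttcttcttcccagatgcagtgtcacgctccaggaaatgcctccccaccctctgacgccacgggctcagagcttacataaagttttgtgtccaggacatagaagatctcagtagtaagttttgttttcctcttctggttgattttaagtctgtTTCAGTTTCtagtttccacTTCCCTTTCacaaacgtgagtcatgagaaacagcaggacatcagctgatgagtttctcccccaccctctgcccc
Irf7: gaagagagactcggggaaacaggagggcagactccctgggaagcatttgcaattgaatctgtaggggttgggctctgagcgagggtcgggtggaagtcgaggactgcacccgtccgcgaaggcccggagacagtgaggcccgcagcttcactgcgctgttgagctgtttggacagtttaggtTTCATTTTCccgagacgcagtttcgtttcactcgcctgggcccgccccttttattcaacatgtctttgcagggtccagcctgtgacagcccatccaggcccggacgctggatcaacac
Irf1: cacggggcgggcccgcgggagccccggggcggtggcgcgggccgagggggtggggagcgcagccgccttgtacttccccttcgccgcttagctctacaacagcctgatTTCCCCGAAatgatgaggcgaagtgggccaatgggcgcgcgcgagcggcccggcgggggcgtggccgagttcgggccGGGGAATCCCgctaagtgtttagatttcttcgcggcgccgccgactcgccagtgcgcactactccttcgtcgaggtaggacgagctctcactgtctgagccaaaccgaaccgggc
Irf8: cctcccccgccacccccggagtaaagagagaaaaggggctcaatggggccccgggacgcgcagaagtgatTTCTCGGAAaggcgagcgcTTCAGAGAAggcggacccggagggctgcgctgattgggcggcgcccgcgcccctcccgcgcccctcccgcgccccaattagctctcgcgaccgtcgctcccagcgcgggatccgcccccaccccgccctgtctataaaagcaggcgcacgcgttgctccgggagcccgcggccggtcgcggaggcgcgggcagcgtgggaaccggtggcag
Ccl20: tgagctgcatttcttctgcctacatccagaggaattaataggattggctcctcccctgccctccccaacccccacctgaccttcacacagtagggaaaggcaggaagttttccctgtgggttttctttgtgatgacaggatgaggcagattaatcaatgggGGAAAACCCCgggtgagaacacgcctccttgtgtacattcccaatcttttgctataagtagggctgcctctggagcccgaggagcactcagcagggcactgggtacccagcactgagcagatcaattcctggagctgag
Il6: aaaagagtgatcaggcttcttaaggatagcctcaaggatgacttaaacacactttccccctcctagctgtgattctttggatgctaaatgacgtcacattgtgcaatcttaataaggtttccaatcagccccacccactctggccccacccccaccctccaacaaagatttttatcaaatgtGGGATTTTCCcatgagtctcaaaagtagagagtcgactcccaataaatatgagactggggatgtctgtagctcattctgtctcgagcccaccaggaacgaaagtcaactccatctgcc

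Antiviral genes were at a plateau in set 1, before IFN-γ and after every treatment, while in sets 2 and 3 they followed the treatment. Levels are given below in the order control, IFN-γ, IFN-γ with GW, and SHP siRNA with IFN-γ and GW. Mx1, a GTPase that blocks viral replication, was at 11.98, 11.997, 11.85 and 11.82 in set 1, 7.78, 10.12, 7.23 and 8.79 in set 2 and 7.45, 9.46, 7.18 and 9.09 in set 3. Irf7, the transcription factor that amplifies type I interferon production, was at 12.12, 12.13, 11.91 and 12.01 in set 1, 8.55, 10.28, 7.81 and 10.22 in set 2 and 8.04, 10.17, 7.98 and 10.41 in set 3. In both genes the lowest array of set 1 was above the highest array of sets 2 and 3. The mean difference was 3.52 ± 1.17 (SD of the 4 matched differences, 1 array against 2 in each) for Mx1 and 2.86 ± 1.23 for Irf7. Irf7 was counted with the IRF family and not with the antiviral genes. It did not stand for that family, in which it was the 1 of 8 genes called higher and 0 were lower. Of the 8, 5 had a negative mean difference, and the median was -0.06. Ifit3, which binds viral RNA together with its relatives, was at 10.18, 10.49, 10.005 and 9.86 in set 1, 5.95, 9.40, 5.59 and 8.40 in set 2 and 4.99, 9.08, 5.16 and 8.76 in set 3. Set 1 again lay above both other sets in every group, by 1.25 with IFN-γ and by at least 4.53 without it.

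Of 32 antiviral genes with a row, 18 were higher in set 1 and 1 was lower, and the median difference of the list was 1.43 against 0.03 over all genes. By treatment group the median difference of the list was 2.02, 0.51, 2.14 and 0.65, so the distance was wider in the control group and in the GW group than in the IFN-γ and SHP siRNA groups. Oasl, an OAS-like antiviral protein, was at 10.68, 11.52, 11.09 and 10.93 in set 1, 6.16, 7.72, 7.20 and 8.36 in set 2 and 5.93, 7.81, 6.97 and 8.55 in set 3. Rsad2, which encodes viperin, was at 11.42, 12.17, 11.52 and 11.47 in set 1, 7.996, 11.67, 7.66 and 10.86 in set 2 and 7.39, 11.49, 7.65 and 11.04 in set 3. For Rsad2 the distance in the IFN-γ group was 0.59 and in the control group 3.73. The lower gene was Ifitm1, a membrane protein that restricts viral entry, with 9.05 in the control array of set 1 against 9.85 and 9.90. Trim25, an E3 ligase of the RIG-I pathway, also went the other way with IFN-γ, at 9.41 in set 1 against 10.60 and 10.54.

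The signalling genes of the type I pathway showed the same plateau at smaller size. Stat2 was at 10.72, 10.75, 10.61 and 10.62 in set 1, 9.25, 10.61, 9.03 and 10.51 in set 2 and 9.14, 10.35, 9.12 and 10.55 in set 3. Irf9, its partner in the complex that binds ISREs, was at 9.79, 9.76, 9.68 and 9.74 in set 1, 8.29, 9.40, 8.03 and 9.62 in set 2 and 8.21, 9.37, 8.17 and 9.68 in set 3. Usp18, a feedback inhibitor of the interferon receptor, was at 10.78, 10.90, 10.69 and 10.23 in set 1, 8.16, 10.44, 8.13 and 10.01 in set 2 and 7.87, 10.17, 7.85 and 10.15 in set 3. In Stat2 and Irf9 all 4 arrays of set 1 lay at or above the level that sets 2 and 3 reached with IFN-γ, and in Usp18 all but the SHP siRNA array did. Of 14 receptor, JAK and STAT pathway genes with a row, 2 were higher in set 1, Usp18 and Socs3, and 0 were lower. Of the interferon genes, Ifng, which encodes IFN-γ, was at background on every array, between 4.30 and 4.52 in set 1 and between 3.96 and 4.41 in the others. Ifnb1, which encodes interferon-β, was also at background without treatment, at 4.997, 4.90 and 4.72 in the control arrays.

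Ifi27l2b and Ccl5 were higher in set 1 although they did not pass the test for IFN-γ, GW or SHP siRNA in sets 2 and 3. Ifi27l2b, an interferon-inducible mitochondrial protein of the Ifi27 family, was at 11.09, 10.99, 10.64 and 9.92 in set 1, 7.33, 7.02, 6.42 and 7.23 in set 2 and 6.83, 7.003, 6.51 and 6.83 in set 3. Ccl5, a chemokine for T cells and monocytes, was at 10.84, 10.58, 9.99 and 8.91 in set 1, 6.62, 6.72, 6.86 and 7.07 in set 2 and 6.69, 6.70, 6.95 and 6.89 in set 3. Neither gene overlapped between set 1 and the others on any array, with mean differences of 3.76 ± 0.59 and 3.27 ± 1.005. In sets 2 and 3 the change with IFN-γ was 0.05 ± 0.09 (SE, limma adjusted p = 0.825) for Ccl5 and -0.07 ± 0.18 (SE, limma adjusted p = 0.89) for Ifi27l2b. Lcn2, a lipocalin secreted by reactive astrocytes, was at 12.05, 11.64, 11.49 and 11.47 in set 1, 9.40, 9.08, 8.98 and 9.01 in set 2 and 9.09, 9.17, 8.81 and 9.75 in set 3. Of 9 complement genes 4 were higher in set 1 and 0 lower. The 4 were C3, Cfb, C3ar1 and Serping1, of which the last 3 also changed with IFN-γ, GW and SHP siRNA in sets 2 and 3. C3, the central complement component, was between 11.88 and 12.26 in set 1 and between 10.61 and 11.42 in the others. Of 24 reactive astrocyte genes, Lcn2 was the 1 called higher, 0 were lower, and the median difference was 0.00.

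**Figure D2:**
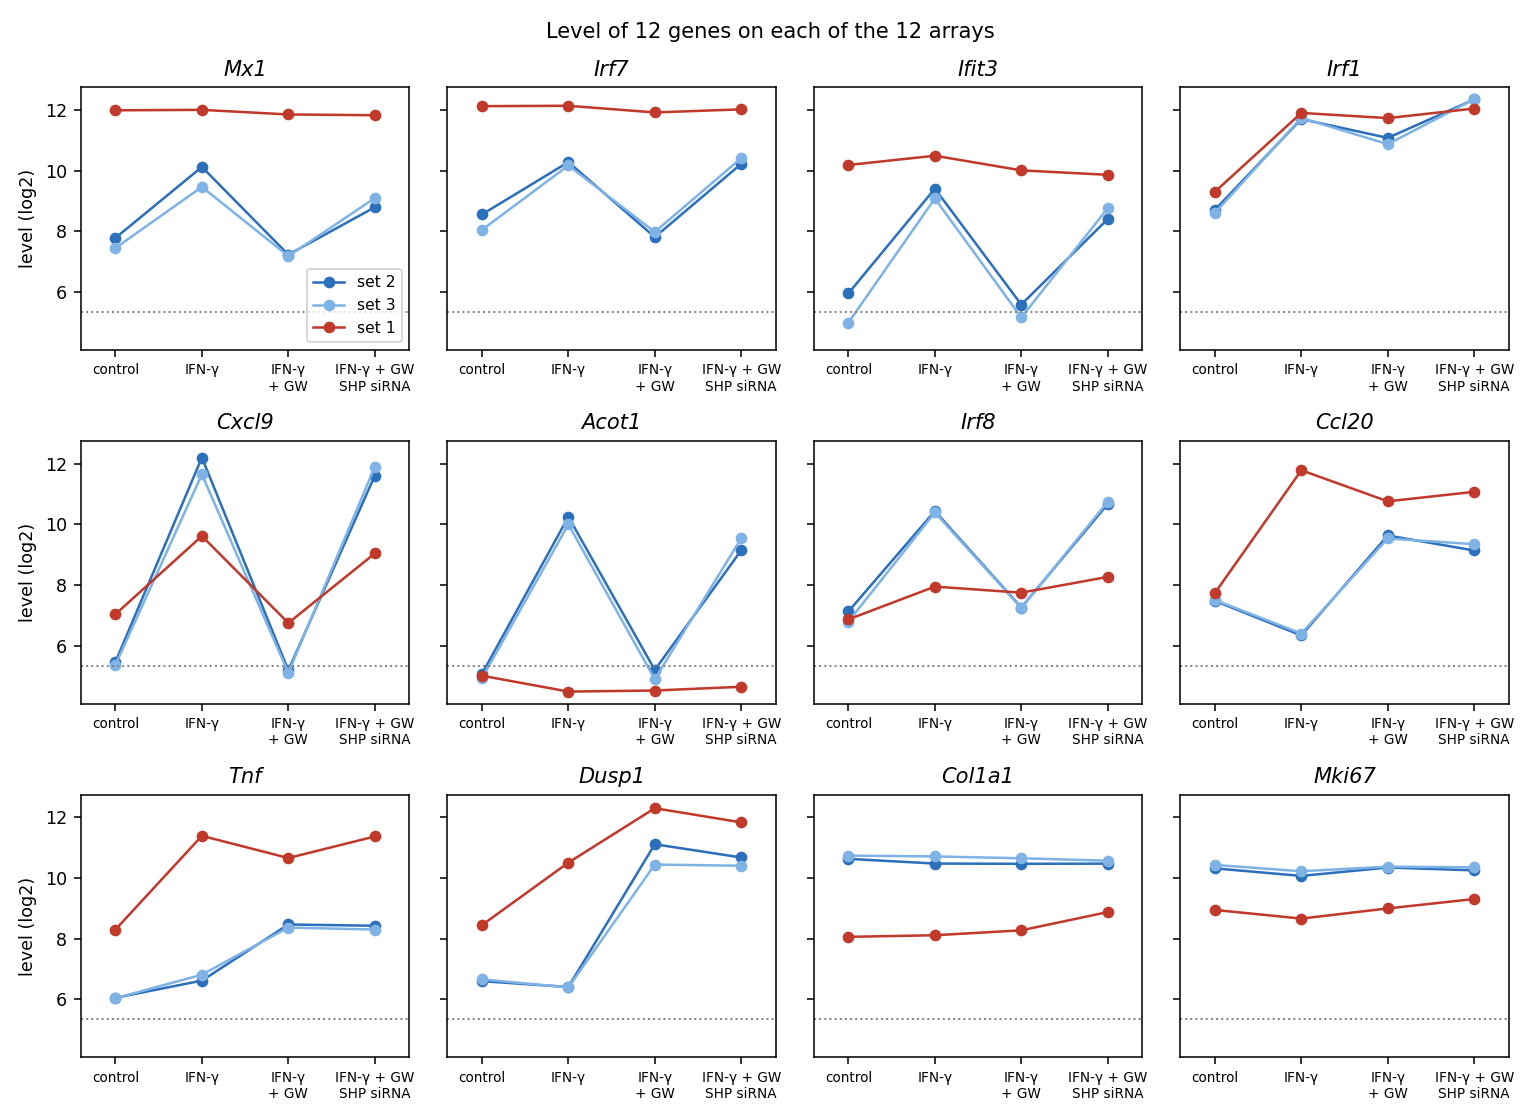
Log2 level (vertical axis) of 12 genes on each array by treatment group (horizontal axis), with 1 line per set joining its 4 arrays and a dotted line at the background level of 5.34. Mx1, Irf7 and Ifit3 are flat in set 1, Acot1 stays below background there, and Ccl20 rises with IFN-γ in set 1 from 7.74 to 11.78.

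Inflammatory cytokines and chemokines were higher in set 1 already without IFN-γ. Il1b, the main inflammasome cytokine, was at 9.23, 10.94, 9.06 and 9.91 in set 1, 5.16, 5.58, 6.92 and 6.98 in set 2 and 5.26, 5.57, 7.27 and 6.81 in set 3. Tnf was at 8.30, 11.39, 10.66 and 11.37 in set 1, 6.05, 6.62, 8.47 and 8.43 in set 2 and 6.04, 6.82, 8.37 and 8.30 in set 3. Il6 was at 6.73, 10.24, 10.74 and 9.84 in set 1, 4.32, 4.28, 7.82 and 7.70 in set 2 and 4.48, 4.63, 6.88 and 8.65 in set 3. In all 3 genes each array of set 1 exceeded both arrays of the same treatment group in the other sets, although the untreated array of set 1 was below arrays of sets 2 and 3 that had received GW for Il6 and Tnf. The mean differences were 3.59 ± 1.45 for Il1b (at least 3.55), 3.04 ± 1.14 for Tnf and 3.29 ± 1.81 for Il6 (at least 2.83). The macrophage inflammatory proteins Ccl3 and Ccl4 were at 11.02 and 8.49 in the untreated array of set 1, against 7.71 and 7.68 for Ccl3 and 5.32 and 5.59 for Ccl4.

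By list, 11 of 23 chemokines and 11 of 29 cytokines and effectors were higher in set 1, and 0 of either list were lower. Of 15 NF-κB genes 7 were higher and 0 lower, and of 21 immediate-early genes 10 were higher and 0 lower. The median difference was 0.81 for chemokines, 0.82 for cytokines and effectors, 0.92 for NF-κB genes and 1.11 for immediate-early genes, against 0.03 over all genes. Egr1, an immediate-early zinc finger factor, was at 10.03, 11.004, 12.47 and 12.04 in set 1, 7.14, 7.15, 11.73 and 11.62 in set 2 and 7.17, 6.97, 11.38 and 11.75 in set 3. Dusp1, a phosphatase that ends MAP kinase signalling, was at 8.45, 10.51, 12.30 and 11.83 in set 1, 6.60, 6.41, 11.11 and 10.68 in set 2 and 6.66, 6.40, 10.44 and 10.40 in set 3. With GW, sets 2 and 3 came closer to set 1 in both genes, for Egr1 to a distance of 0.36 in the SHP siRNA group against 2.88 in the control group. The receptor Tlr1, which senses bacterial lipopeptides with Tlr2, was between 6.55 and 8.32 in set 1 and between 4.59 and 5.08, under background, in the others. Tlr7, the sensor of single-stranded RNA, was between 8.94 and 9.90 in set 1 and between 7.55 and 8.06 in the others. Of 16 genes of the Toll-like receptor pathway 3 were higher (Tlr1, Tlr2 and Tlr7) and 1 was lower, the lipopolysaccharide-binding protein Lbp at -1.64 ± 0.62. Of 25 antigen presentation genes 7 were higher and 0 lower, with a median of 0.38. RT1-Da, a chain of MHC class II, was between 6.48 and 7.53 in set 1 and between 4.93 and 5.35 in the others. Psmb8, a subunit of the immunoproteasome, was between 9.11 and 9.64 in set 1 and between 6.94 and 8.42 in the others, so neither gene overlapped.

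**Figure D3:**
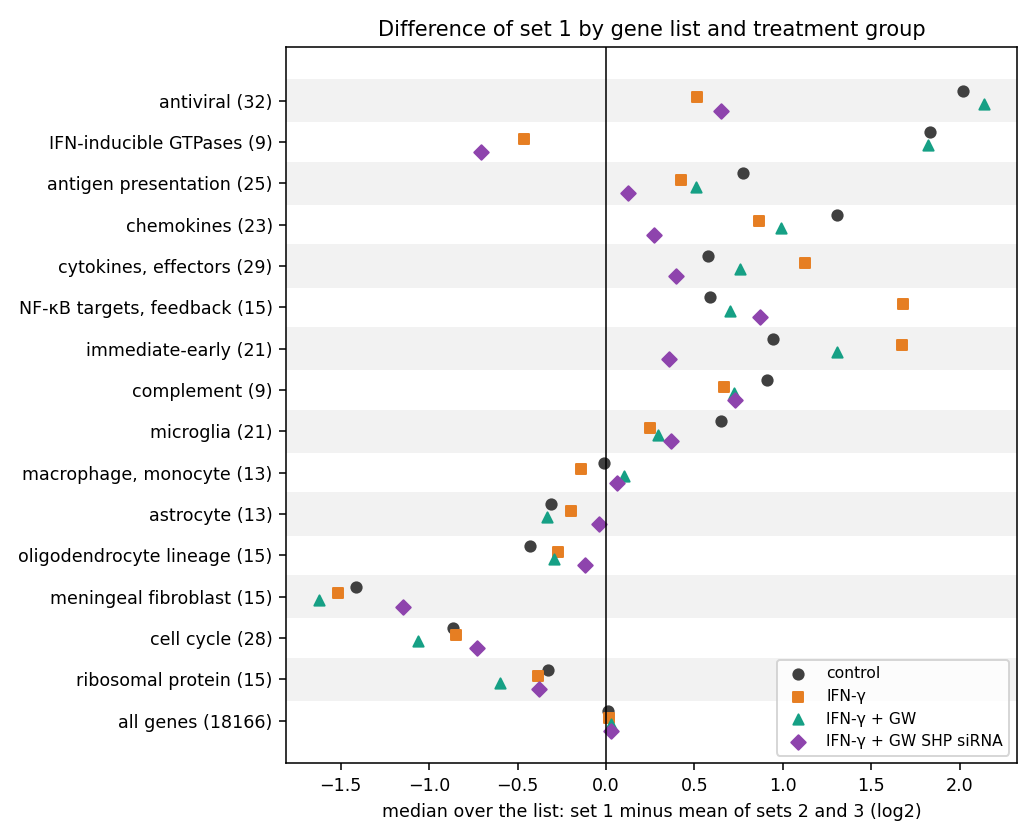
Median over each gene list (number of genes with a row in brackets) of the log2 difference of set 1 from the mean of sets 2 and 3, with 1 symbol per treatment group. Antiviral genes and interferon-inducible GTPases have medians of 2.02 and 1.83 in the control group and 0.51 and -0.46 with IFN-γ, while meningeal fibroblast and cell cycle genes are negative in all 4 groups.

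The defining markers of astrocytes, the labelled cell type, were high in every set. Gfap, the astrocyte intermediate filament, was at 11.72, 11.73, 11.81 and 11.74 in set 1, 11.96, 12.04, 12.04 and 12.06 in set 2 and 12.04, 11.997, 12.06 and 12.04 in set 3. Aqp4, the astrocyte water channel, was between 10.86 and 11.84 in set 1 and between 11.74 and 11.84 in the others. Of 13 astrocyte genes 0 were higher and 1 was lower in set 1, the bicarbonate transporter Slc4a4 at -1.14 ± 0.13, and the median difference was -0.20. In bulk RNA fewer cells of a type and less of its RNA per cell cannot be told apart, which holds for each marker list below.

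Markers of microglia were present in all sets, after the serum-free step, and were on balance higher in set 1. Aif1, which encodes Iba1, was at 9.86, 9.42, 8.73 and 8.71 in set 1, 8.83, 8.68, 8.22 and 8.12 in set 2 and 8.59, 8.64, 8.19 and 8.22 in set 3. The lysosomal protein Cd68 was at 10.65, 10.35, 10.06 and 10.15 in set 1, 9.68, 9.68, 9.25 and 9.51 in set 2 and 9.59, 9.67, 9.45 and 9.37 in set 3. Each array of set 1 exceeded both arrays of its treatment group for these 2 genes. Of 21 microglia genes 17 had a positive mean difference, 2 passed the rule as higher (Ly86 at 1.17 ± 0.27 and the transcription factor Spi1 at 1.05 ± 0.32) and 0 as lower, with a median of 0.40. The median level of the list ran from 8.51 to 9.47 in set 1 and from 8.42 to 8.98 in sets 2 and 3. Other defining genes of these cells went the other way or hardly differed: Trem2, a lipid receptor, was between 8.01 and 8.86 in set 1 and between 8.73 and 9.35 in the others, with a mean difference of -0.68 ± 0.18, and the growth factor receptor Csf1r and the adaptor Tyrobp had -0.27 ± 0.29 and -0.01 ± 0.44. The part of microglia in the cytokine and antiviral levels of set 1 was not tested.

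Among macrophage genes the direction was split by gene. Siglec1, an interferon-inducible sialic acid receptor, was at 9.04, 8.80, 8.14 and 8.19 in set 1, 6.91, 6.70, 6.40 and 6.57 in set 2 and 6.60, 6.82, 6.27 and 6.50 in set 3. Lyz2, lysozyme, was higher with 1.06 ± 0.17. Lyve1, a hyaluronan receptor of perivascular and meningeal macrophages and lymphatic endothelium, was at 5.05, 4.84, 4.75 and 5.37 in set 1, 7.77, 7.81, 6.98 and 7.08 in set 2 and 7.86, 8.005, 7.14 and 7.08 in set 3. Mrc1, the mannose receptor of the same macrophages, was at 8.19, 7.59, 7.20 and 7.62 in set 1, 9.22, 9.44, 8.54 and 8.69 in set 2 and 9.14, 9.40, 8.74 and 8.73 in set 3. All 4 genes were called in all treatment groups, 2 in each direction, and the median difference of the 13 genes was 0.02. Only 7 of the 13 had a mean level above background. Median levels of the list were 4.84 to 5.37 in set 1 and 5.85 to 6.13 in the others. Those of set 1 were under background except with SHP siRNA, and equalled the level of Lyve1 except with GW and control siRNA. The distance between these medians therefore says little about the list. Cd72, a coreceptor known from B cells, was between 8.32 and 9.08 in set 1 and between 4.95 and 5.76 in the others, a mean difference of at least 3.19. Of 15 lymphocyte genes 0 were called, but only 4 had a mean level above background, and Cd3d was at background on all 12 arrays. The list therefore says little about these cells.

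Genes of meningeal fibroblasts were far lower in set 1. Col1a1, a chain of type I collagen, was at 8.06, 8.11, 8.28 and 8.88 in set 1, 10.63, 10.47, 10.47 and 10.47 in set 2 and 10.74, 10.71, 10.65 and 10.57 in set 3. Igf2, a growth factor of the meninges and choroid plexus, was at 5.87, 5.69, 5.86 and 6.38 in set 1, 8.87, 8.96, 9.34 and 9.22 in set 2 and 9.20, 9.15, 9.38 and 9.05 in set 3. Dcn, the collagen-binding proteoglycan decorin, was at 4.93, 4.74, 5.13 and 5.37 in set 1, 8.41, 8.40, 7.78 and 7.79 in set 2 and 8.50, 8.14, 7.94 and 7.57 in set 3. None of the 3 genes overlapped between set 1 and the others, and no treatment group differed from that pattern. Mean differences were -2.26 ± 0.43 for Col1a1 and -3.20 ± 0.33 for Igf2 and -2.72 or lower for Dcn, whose level was under background on 3 of the 4 arrays of set 1. Of 15 meningeal fibroblast genes 9 were lower and 0 higher, with a median of -1.43. The median level of the list ran from 6.58 to 6.93 in set 1 and from 8.46 to 8.98 in the others. Further matrix genes among the 15 lowest were Cemip, a hyaluronidase (-2.66 ± 0.28), Tgfbi, which links collagen to integrins (-2.58 ± 0.57), Fbln2, a fibulin of basement membranes (-2.31 ± 0.08), and Fap, a fibroblast protease (-1.26 or lower). Lama2, a laminin chain of basement membranes, stood at -2.12 ± 0.47.

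Some genes that are lower in set 1 are not known as fibroblast genes or, like Pdgfra and Vcan, not as those alone. Tnr, the neural matrix protein tenascin-R made by oligodendrocytes and their precursors, was at 7.21, 7.29, 7.24 and 7.87 in set 1, 9.98, 10.05, 9.87 and 9.97 in set 2 and 10.16, 10.09, 9.96 and 9.88 in set 3. Pdgfra, the receptor that marks oligodendrocyte precursors and also fibroblasts, was at 7.66, 8.07, 7.30 and 7.97 in set 1, 9.68, 9.60, 9.41 and 9.30 in set 2 and 9.63, 9.65, 9.46 and 9.45 in set 3. Olig1, a factor of the oligodendrocyte lineage, had a difference of -1.16 ± 0.21, and 3 of 15 genes of that lineage were lower with a median of -0.22. Of 11 endothelial genes 2 were lower, with Cdh5 at -1.11 ± 0.23, and of 11 mural cell genes 0 were called. Vcan, a large proteoglycan of precursor and mesenchymal cells, had -2.01 ± 0.13.

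Proliferation genes were also lower in set 1. Mki67, which marks cycling cells, was at 8.95, 8.66, 8.998 and 9.31 in set 1, 10.32, 10.07, 10.34 and 10.25 in set 2 and 10.43, 10.22, 10.37 and 10.35 in set 3. Rrm2, which makes deoxynucleotides for DNA synthesis, was at 8.83, 8.53, 7.85 and 8.31 in set 1, 10.05, 9.90, 9.96 and 9.69 in set 2 and 9.97, 9.78, 9.94 and 9.88 in set 3. Of 28 cell cycle genes 12 were lower and 0 higher, all 28 lay below both other sets in all 4 groups, and the median difference was -0.94. Cdkn1a, the cell cycle inhibitor p21, went the other way at 10.71, 10.84, 10.35 and 10.26 in set 1, 8.82, 8.92, 8.53 and 8.98 in set 2 and 8.97, 8.83, 8.64 and 8.64 in set 3. Ribosomal protein genes had a median of -0.42 with 14 of 15 below both other sets in every group, and cholesterol synthesis genes one of -0.44 with 10 of 14. Over all genes 2935 of 18166 lay below both in every group. With the size limit, 0 of the 15 ribosomal protein genes and 1 of the 14 cholesterol synthesis genes were called lower, and 0 of either list higher. Of 363 miRNA loci with a row 14 were lower and 0 higher, where 1.46% of all genes were lower and 1.76% higher. How many of these loci lay above background is not given. The lowest was Mir449c, with levels under background on 3 of 4 arrays of set 1 and a difference of -1.94 or lower.

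**Figure D4:**
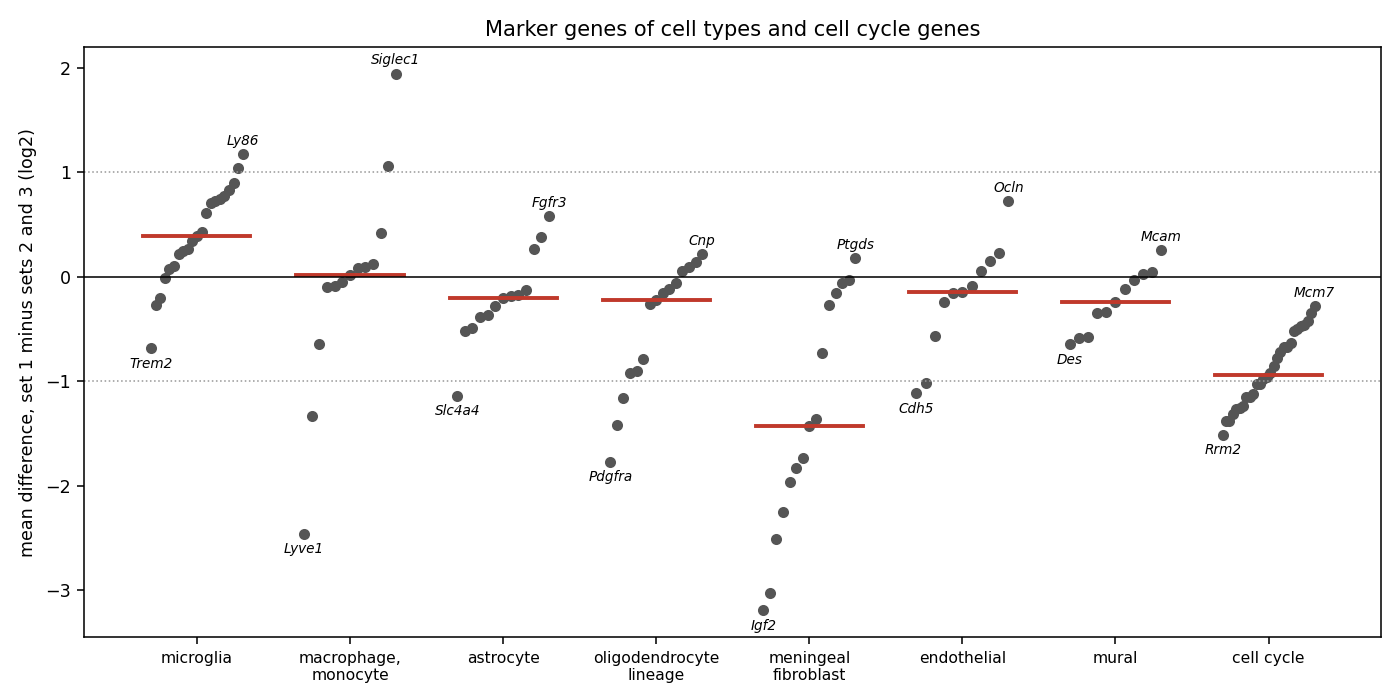
Mean log2 difference of set 1 from sets 2 and 3 (vertical axis) for each marker gene of 7 cell types and for cell cycle genes, with a red line at the median of each list and dotted lines at 1 and -1. Meningeal fibroblast genes reach -3.20 for Igf2, all 28 cell cycle genes are negative, and microglia genes run from -0.68 for Trem2 to 1.17 for Ly86.

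The responses of sets 2 and 3, without set 1, were tested with limma at a Benjamini-Hochberg adjusted p under 0.05. The response of set 1 was then set against theirs in the same fit. With 1 array per treatment group, set 1 has no spread of its own and is assumed to vary like sets 2 and 3, which leave 4 residual degrees of freedom per gene. These tests combine levels that were in view when the comparison was chosen, so they size the differences and are no independent support. The differences in the response to IFN-γ and to GW share the IFN-γ arrays with opposite sign, and those to GW and to SHP siRNA share the GW arrays, so agreement between them is built in.

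IFN-γ raised 554 genes in sets 2 and 3 (3.05% of 18166) and lowered 302 (1.66%). Set 1 had a more positive change in 233 genes (1.28%) and a more negative one in 208 (1.14%). Of the 554 raised genes, 367 (66.2%) also went up in set 1, against 44.3% of all genes. In set 1, 420 of the 554 changed by less than 50% of the rise in the other sets. Their median change was 0.11 in set 1 against 0.78. The count of 441 differing genes fell to 284 without the control array of set 2 and to 265 without that of set 3. Without the same arrays the 856 genes that changed in sets 2 and 3 became 415 and 440.

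Genes raised by IFN-γ in sets 2 and 3 were often high before treatment in set 1. The untreated array of set 1 lay above both untreated arrays of the other sets in 428 of the 554 genes, past the midpoint of their rise in 284, and at or above the lower of the treated arrays in 161. Over the 554 genes the untreated array of set 1 stood at a median of 51.3% of the rise from the untreated to the treated mean of the other sets. For 27 antiviral genes that median was 120% and for 9 interferon-inducible GTPases it was 66.4%. These shares use the control arrays of sets 2 and 3 that also chose the 554 genes, and describe them only. That choice favours low untreated values in sets 2 and 3, and so favours set 1 lying above them. The same counts were not made over all genes.

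The GTPases that attack intracellular pathogens rose in sets 2 and 3 in 9 of 9 cases, with a median change of 2.73 and one of 0.40 in set 1, and 8 of the 9 had a smaller change in set 1. Gbp2 was at 10.01, 10.41, 9.89 and 10.01 in set 1, 8.12, 11.21, 8.49 and 10.45 in set 2 and 8.23, 10.62, 8.52 and 10.18 in set 3. Gbp6 was at 9.99, 10.01, 9.85 and 9.78 in set 1, 8.73, 11.85, 8.61 and 11.42 in set 2 and 8.63, 11.33, 8.63 and 11.37 in set 3. Untreated set 1 lay above the untreated arrays of the other sets in both genes and its treated array below their treated arrays, so set 1 stayed between the untreated and treated levels of the others. Of the 9 GTPases, the treated array of set 1 lay below both treated arrays of the other sets in 6 and above both in 3. By level, 3 of the 9 were called higher in set 1 and 0 lower. The difference in response was -2.33 ± 0.31 (SE, limma adjusted p = 0.0092) for Gbp2 and -2.89 ± 0.26 (SE, limma adjusted p = 0.0018) for Gbp6.

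Several genes that IFN-γ raised strongly in sets 2 and 3 changed less in set 1 although they were not high there beforehand. Hk2, the last gene given below, is an exception in part. Its level in untreated set 1 lay above the untreated mean of the other sets, so part of its difference in response lies in the control group. Acot1, an acyl-CoA thioesterase, was at 5.01, 4.49, 4.52 and 4.65 in set 1, 5.07, 10.24, 5.20 and 9.14 in set 2 and 4.93, 9.99, 4.89 and 9.54 in set 3. Set 1 was under background in all 4 groups, while the other sets rose by at least 4.78, with a fitted 5.12 ± 0.16 (SE, limma adjusted p = 4.85e-06), and the difference in response was -5.64 ± 0.28 (SE, limma adjusted p = 0.000284). Irf8, a partner of IRF1 in myeloid gene control, was at 6.87, 7.95, 7.75 and 8.27 in set 1, 7.13, 10.43, 7.26 and 10.66 in set 2 and 6.79, 10.39, 7.24 and 10.74 in set 3. Socs1, the feedback inhibitor of JAK kinases, was at 6.79, 8.59, 6.75 and 7.85 in set 1, 6.29, 10.90, 6.48 and 9.70 in set 2 and 6.45, 10.82, 6.49 and 10.37 in set 3. The differences were -2.37 ± 0.20 (SE, limma adjusted p = 0.0012) for Irf8 and -2.69 ± 0.33 (SE, limma adjusted p = 0.0064) for Socs1. Hk2, a hexokinase of glycolysis, was at 7.37 in the IFN-γ array of set 1 against 9.39 and 9.32, a difference in response of -2.57 ± 0.14 (SE, limma adjusted p = 0.000445).

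The CXCR3 chemokines, textbook targets of IFN-γ, were higher with IFN-γ in every set, and their change was smaller in set 1. Cxcl9 was at 7.04, 9.61, 6.75 and 9.04 in set 1, 5.47, 12.19, 5.19 and 11.60 in set 2 and 5.37, 11.64, 5.11 and 11.89 in set 3. Cxcl10 was at 10.52, 12.22, 10.91 and 11.56 in set 1, 8.86, 12.50, 9.01 and 12.36 in set 2 and 8.59, 12.15, 9.11 and 12.48 in set 3. In the IFN-γ group set 1 was lower by far for Cxcl9 and between the other sets for Cxcl10, and untreated set 1 was higher for both. The change in set 1 was 2.57 for Cxcl9 and 1.71 for Cxcl10, and the differences in response were -3.92 ± 0.31 (SE, limma adjusted p = 0.000962) and -1.89 ± 0.24 (SE, limma adjusted p = 0.0071). Cd274, which encodes PD-L1, was at 9.21, 9.89, 9.39 and 9.82 in set 1, 6.30, 11.68, 7.63 and 10.86 in set 2 and 6.57, 11.41, 7.97 and 11.11 in set 3. Its difference in response was -4.43 ± 0.28 (SE, limma adjusted p = 0.000445), the change in set 1 being 0.68.

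Irf1, an early transcription factor of the IFN-γ response, was higher with IFN-γ in all 3 sets. It was at 9.30, 11.90, 11.73 and 12.04 in set 1, 8.70, 11.70, 11.07 and 12.34 in set 2 and 8.60, 11.73, 10.87 and 12.35 in set 3. Its change was 2.60 in set 1 and 3.06 ± 0.09 (SE, limma adjusted p = 4.85e-06) in sets 2 and 3, and the difference, -0.46 ± 0.16 (SE, limma adjusted p = 0.272), did not pass the threshold, although it did with trend and robust variance (adjusted p = 0.0371). Ccl2, a monocyte chemokine, had changes of 1.32 and 1.77 ± 0.09 (SE, limma adjusted p = 3.32e-05), with a difference of -0.45 ± 0.16 (SE, limma adjusted p = 0.269) that likewise passed only with trend and robust variance (adjusted p = 0.0306).

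In the other direction, inflammatory genes had a more positive change with IFN-γ in set 1 than in sets 2 and 3. Ccl20, the chemokine for CCR6, was at 7.74, 11.78, 10.75 and 11.07 in set 1, 7.48, 6.34, 9.63 and 9.14 in set 2 and 7.51, 6.40, 9.53 and 9.34 in set 3. Cxcl2, a neutrophil chemokine, was at 7.19, 11.48, 10.52 and 11.06 in set 1, 6.16, 5.82, 9.61 and 8.63 in set 2 and 5.69, 5.73, 9.48 and 8.53 in set 3. The IFN-γ array of set 1 was above all 8 arrays of the other sets in both genes. In sets 2 and 3 Ccl20 was lower with IFN-γ than without it, which makes up part of its difference in response. The difference in response was 5.16 ± 0.16 (SE, limma adjusted p = 2.37e-05) for Ccl20 and 4.44 ± 0.25 (SE, limma adjusted p = 0.000445) for Cxcl2. Ifnb1 was at 4.997, 8.35, 7.51 and 7.54 in set 1, 4.90, 4.74, 5.34 and 5.20 in set 2 and 4.72, 4.76, 4.87 and 5.51 in set 3. It was above background in set 1 only once IFN-γ was present, with a difference of 3.41 ± 0.29 (SE, limma adjusted p = 0.0012). Il6 differed by 3.46 ± 0.62 (SE, limma adjusted p = 0.0299), a call that was lost with the replicate block (adjusted p = 0.0565), with trend and robust variance (0.054), and without either control or either IFN-γ array of sets 2 and 3 (up to 0.0964). Tnf differed by 2.42 ± 0.17 (SE, limma adjusted p = 0.00054), and Nos2, whose enzyme makes nitric oxide in inflammation, by 1.70 ± 0.21 (SE, limma adjusted p = 0.0066).

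NF-κB feedback genes differed in the same direction. Nfkbia, the inhibitor that NF-κB induces to end its own signal, was at 9.95, 11.94, 12.19 and 12.43 in set 1, 9.51, 9.38, 11.47 and 11.41 in set 2 and 9.56, 9.44, 11.42 and 11.47 in set 3. Its difference was 2.12 ± 0.13 (SE, limma adjusted p = 0.000445). Of 15 NF-κB genes 11 had a more positive change in set 1 and 0 a more negative one, with a median change of 1.51 in set 1 and of 0.11 in the others. Of 29 cytokines and effectors 8 were more positive and 3 more negative, of 23 chemokines 7 and 4, and of 21 immediate-early genes 5 and 0. Of 32 antiviral genes 0 were more positive and 18 more negative. Microglia genes did not pass in either direction (0 of 21), with median changes of -0.43 in set 1 and -0.02 in the others. Over all genes 1.28% were more positive and 1.14% more negative, so a count of 0 of 21 says little.

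**Figure D5:**
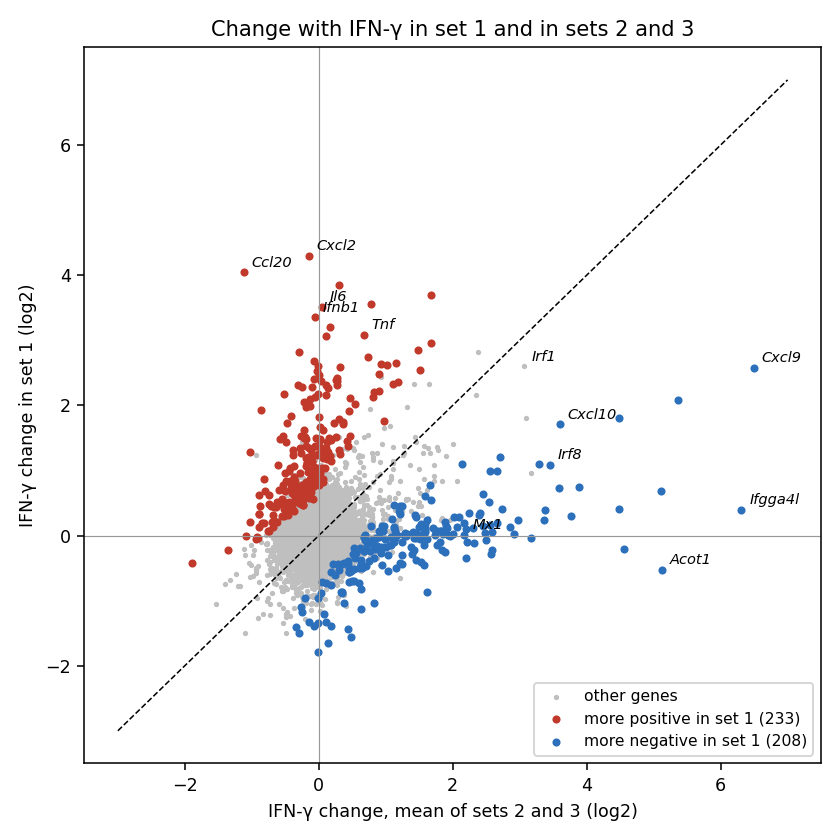
Log2 change with IFN-γ in set 1 (vertical axis, 1 array against 1) and in sets 2 and 3 (horizontal axis, mean of 2) for 18166 genes, with the line of equality dashed. Red marks 233 genes with a more positive and blue 208 with a more negative change in set 1 (limma adjusted p under 0.05). Cxcl2, Il6, Ifnb1 and Tnf lie near the vertical axis and Ccl20 to the left of it. Acot1 and Mx1 lie near the horizontal axis, and Cxcl9 and Cxcl10 between the horizontal axis and the line of equality.

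GW, added together with IFN-γ, raised 1176 genes in sets 2 and 3 (6.47%) and lowered 905 (4.98%) against IFN-γ alone. Set 1 had a more positive change in 238 genes (1.31%) and a more negative one in 311 (1.71%), a split that became 184 and 475 after centring on array medians. Interferon-inducible genes fell with GW in sets 2 and 3 and moved less in set 1. All 9 GTPases and 28 of 32 antiviral genes fell in sets 2 and 3, with median changes over the lists of -2.83 and -1.88, against -0.64 and -0.34 in set 1. For Mx1 the change was -0.15 in set 1 and -2.58 ± 0.21 (SE, limma adjusted p = 0.000227) in the others, a difference of 2.43 ± 0.37 (SE, limma adjusted p = 0.0148). The GW array of set 1 was thus at 11.85 and those of the other sets at 7.23 and 7.18. The count of 549 differing genes fell to 322 and 314 without the GW arrays of sets 2 and 3, and to 364 without the SHP siRNA array of set 2 or of set 3, whose spread enters the fit. The 2081 genes that changed in sets 2 and 3 became 912 and 1131 without the GW arrays of sets 2 and 3.

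Other genes were lower with GW in all sets. Cxcl9 had a change of -2.86 in set 1 and of -6.77 ± 0.18 (SE, limma adjusted p = 2.47e-06) in the others, which brought set 1 from 9.61 to 6.75. Cxcl10 had -1.32 and -3.27. Of the 905 genes lowered in sets 2 and 3, 718 (79.3%) also went down in set 1, where 48.7% of all genes went up. The median change of the 905 genes was -0.27 in set 1 against -0.56. Of 21 microglia genes 0 differed in response, which is near the share over all genes (1.31% more positive, 1.71% more negative) and says little. In sets 2 and 3, 13 of the 21 fell, and all 13 went down in set 1. Aif1, for example, changed by -0.69 in set 1 and by -0.46 ± 0.10 (SE, limma adjusted p = 0.0208) in the others, which was lost without either IFN-γ or either GW array of those sets (adjusted p up to 0.102).

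In sets 2 and 3 the immediate-early genes rose in 21 of 21 cases and all 21 also went up in set 1, where 2 had a more positive and 5 a more negative change. Fos was at 9.24, 9.33, 12.37 and 11.70 in set 1, 7.74, 7.68, 11.80 and 11.53 in set 2 and 7.77, 7.999, 11.20 and 11.83 in set 3. Its change was 3.04 in set 1 and 3.66 ± 0.20 (SE, limma adjusted p = 2.76e-05) in the others, with a difference of -0.62 ± 0.35 (SE, limma adjusted p = 0.401). Some chemokines that GW raised in sets 2 and 3 were already high with IFN-γ alone in set 1. Ccl3 was at 11.02, 12.31, 11.58 and 11.98 in set 1, 7.71, 6.60, 10.95 and 10.44 in set 2 and 7.68, 6.73, 10.86 and 10.41 in set 3. GW took it up by 4.24 ± 0.08 (SE, limma adjusted p = 5.64e-07) in the other sets, and the change in set 1 was -0.73, a difference of -4.97 ± 0.14 (SE, limma adjusted p = 1.22e-05). After GW the sets were 0.68 apart, and before it 5.65. Of 15 NF-κB genes 11 rose in sets 2 and 3, and 12 had a more negative change in set 1. Abca1, a cholesterol exporter, rose by 0.91 ± 0.08 (SE, limma adjusted p = 0.000345) in sets 2 and 3, and the change in set 1 was 0.18, a difference of -0.73 ± 0.14 (SE, limma adjusted p = 0.0373) that was lost with the replicate block (adjusted p = 0.0698) and without any 1 of the 8 arrays of sets 2 and 3 (up to 0.112).

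SHP siRNA was compared with control siRNA in the presence of IFN-γ and GW. It raised 246 genes in sets 2 and 3 (1.35%) and lowered 21 (0.116%). Set 1 had a more positive change in 21 genes (0.116%) and a more negative one in 110 (0.606%). Of the 246 raised genes 122 (49.6%) went up in set 1, near the 47.9% of all genes that did. The median change of the 246 genes was 0.00 in set 1 against 0.98 in the other sets. With the set number as a replicate block the count of 131 differing genes was 74. It fell to 41 without the SHP siRNA array of set 3, 78 without that of set 2, 65 and 53 without the GW arrays of sets 2 and 3, and 68 without the control array of set 2 or of set 3. The 267 genes that changed in sets 2 and 3 became 140 without the SHP siRNA array of set 3, and 159 and 153 without the GW arrays of sets 2 and 3.

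Interferon-inducible genes rose with SHP siRNA in sets 2 and 3, while the median changes in set 1 were -0.03 for antiviral genes and 0.12 for GTPases. Of 32 antiviral genes 25 rose in sets 2 and 3, of which 11 went up in set 1. Irf7 had changes of 0.10 in set 1 and 2.42 ± 0.16 (SE, limma adjusted p = 0.000225) in the others, a difference of -2.32 ± 0.28 (SE, limma adjusted p = 0.0149) that was lost without the GW array of set 2 (adjusted p = 0.0506) or the SHP siRNA array of set 3 (0.0643). All 9 GTPases rose in sets 2 and 3, and Gbp6 had -0.06 in set 1 with a difference of -2.83 ± 0.26 (SE, limma adjusted p = 0.005). Acot1 had 0.12 in set 1 and 4.29 ± 0.16 (SE, limma adjusted p = 1.29e-05) in the others. Cxcl9 was higher with SHP siRNA in set 1 too, at 9.04 against 6.75 without it, a change of 2.29, against 6.60 ± 0.18 (SE, limma adjusted p = 6.51e-06) in the others. Irf1 changed by 0.31 in set 1 and by 1.37 ± 0.09 (SE, limma adjusted p = 0.000231) in the others, with a difference of -1.06 ± 0.16 (SE, limma adjusted p = 0.0365) that was lost with the replicate block (adjusted p = 0.0625) and without any 1 of 7 of the 8 arrays of sets 2 and 3, the exception being the GW array of set 2 (up to 0.127).

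Postn and Aqp1 were among the 21 genes with a more positive SHP siRNA change in set 1. Postn, the matrix protein periostin, was at 8.51, 8.52, 7.80 and 9.15 in set 1, 10.30, 10.23, 9.86 and 9.83 in set 2 and 10.16, 9.98, 9.80 and 9.75 in set 3. Aqp1, a water channel of choroid plexus, was at 8.37, 8.59, 7.72 and 9.10 in set 1, 10.37, 10.25, 10.25 and 10.25 in set 2 and 10.41, 10.41, 10.24 and 10.23 in set 3. Set 1 stayed below the other sets in both genes in all 4 groups. The differences in response were 1.38 ± 0.18 (SE, limma adjusted p = 0.0203) and 1.38 ± 0.14 (SE, limma adjusted p = 0.0078), and that of Postn was lost without either GW or either SHP siRNA array of sets 2 and 3 (adjusted p up to 0.0842). The meningeal fibroblast list had a median change of 0.30 in set 1 and -0.10 in the others, and 1 of its 15 genes passed, the retinoic acid enzyme Aldh1a2, with a difference of 0.999 ± 0.14 (SE, limma adjusted p = 0.0229). That call was lost with the replicate block (adjusted p = 0.0541) and without either control, GW or SHP siRNA array of sets 2 and 3 (up to 0.0927). Whether the culture behind the SHP siRNA array of set 1 held more such cells was not tested.

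Promoter sequence was set beside these groups for the 14564 genes with an entry. An ISRE core was found in 8.35% of all promoters, a GAS core in 7.79% and an NF-κB core in 8.76%. Among genes higher in set 1, 46 of 250 promoters (18.4%) held an ISRE core and 17.2% an NF-κB core, and among lower genes 9.14% and 11.7%. Genes with a more negative IFN-γ change in set 1 held an ISRE core in 26.9%, a GAS core in 18.1% and an NF-κB core in 9.36%. Of these 208 genes, 173 were among the 554 that IFN-γ raised in sets 2 and 3. The raised genes held an ISRE core in 17.2%, a GAS core in 14.0% and an NF-κB core in 11.9%. Genes with a more positive change in set 1 held an NF-κB core in 22.3%, an ISRE core in 10.6% and a GAS core in 3.72%. Of the 6 promoters printed above, Ifit3 and Irf7 have ISRE cores, Irf8 has GAS cores only, and Ccl20 and Il6 have an NF-κB core only, while Irf1 has a GAS and an NF-κB core. These 6 do not stand for all named genes. Rsad2 has an ISRE core and Cxcl2 has NF-κB cores, but Mx1, Stat2, Tnf and Il1b have none of these cores. Oasl has an NF-κB core only and Irf9 a GAS core only. A match is a description of letters in the window and not a site.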

How the data were processed

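Total RNA of 12 samples was measured on GeneChip whole-transcript arrays, 1 array per sample. The values are log2 levels as deposited by the authors, 36685 rows by 12 arrays, from 1.01 to 13.43. The authors' summarising and normalizing steps were not given in the sources used here, so no normalization was added. Of the rows, 18511 named 1 gene, 575 several and 17599 none, and 291 genes had several rows, of which that of highest mean was used, which gave 18166 genes. Symbols were checked in RefSeq, build GRCr8, where 18394 rows matched. The number of arrays limits the precision.

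Set 1 was set against the mean of sets 2 and 3 within each treatment group, as a description. Responses were tested with limma 3.58.1 (lmFit and eBayes, R 4.3.3) on the means of 8 cells, treatment group by set 1 or sets 2 and 3. All genes were tested, with Benjamini-Hochberg adjustment at 0.05. The fit was also run on simulated data in which set 1 was given the spread of sets 2 and 3. That run could not check whether set 1 varies like them. Tables and figures used Python 3.11.15, pandas 2.3.3, numpy 2.4.6 and matplotlib 3.10.9. The members and the gene lists were chosen with earlier results of these data known, and the clock gene list was added after seeing these values. Genes were named as the 15 highest and 15 lowest mean differences among called genes, the 10 highest and 10 lowest past the threshold in each response difference, up to 4 per list with the largest absolute difference, and 20 genes set by name, of which 1 is not reported here. Aldh1a2 and 28 further genes, among them Irf8, Irf9 and Irf2, were named after their values were seen.

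The labels give the number 1, 2 or 3 to 1 array of each group. Deviations of same-numbered arrays from their group means correlated between 0.43 and 0.77, so the numbers were treated as pairing the arrays. Within sets 2 and 3 alone, the number 2 minus number 3 differences of the treatment groups correlated between -0.02 and 0.00, so that pairing rests on set 1. Alternatives were centring on array medians, quantile normalization, a filter on background, the mean of a gene's rows, trend and robust variance, the replicate block, other size limits, set 2 or set 3 alone, and leaving out each array of sets 2 and 3 or each treatment group.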

Additional observations from a re-analysis of the deposited data

Results flagged for a closer look

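The responses of set 1 and of sets 2 and 3 differed by the test of the difference itself (limma, adjusted p under 0.05), with set 1 at 1 array per treatment group and the spread taken from sets 2 and 3. These tests use levels that were known when set 1 was chosen. Values are log2 changes in set 1 minus those in sets 2 and 3, and levels under background enter as measured.

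For IFN-γ, 441 genes differed, 233 with a more positive and 208 with a more negative change in set 1. The most positive were Ccl20 (5.16), Cxcl2 (4.44), Rtp3 (3.55), Il6 (3.46), Ifnb1 (3.41), Cd83 (3.11), Tnfsf18 (3.03), Cxcr5 (2.95), Rgs2 (2.80) and Ccrl2 (2.78). The most negative were Ifgga4l (-5.92), Acot1 (-5.64), Sectm1b (-4.76), Cd274 (-4.43), Ubd (-4.08), Cxcl9 (-3.92), Ifit3 (-3.46), Cxcl11 (-3.28), Tnfsf10 (-3.20) and Rsad2 (-3.14). Of these, Il6 was lost with the replicate block, Il6 and Ubd with trend and robust variance, and Il6, Ubd and Ifit3 when some single arrays of sets 2 and 3 were left out.

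For GW, 549 genes differed, 238 with a more positive and 311 with a more negative change in set 1. The most positive were Ifgga4l (6.13), Acot1 (5.11), Sectm1b (4.68), Cxcl9 (3.91), Tfpi2 (3.63), Ifit3 (3.39), Rsad2 (3.28), Cd274 (3.24), Ifgga2l2 (3.24) and Tnfsf10 (3.22). The most negative were Ccl3 (-4.97), Cxcl2 (-4.73), Ccl4 (-4.39), Ccl20 (-4.23), S100a5 (-3.78), Il1b (-3.41), Cxcl1 (-3.06), Rtp3 (-3.04), Egr1 (-3.03) and Tnfsf18 (-3.01). Of these, Tfpi2 was lost without the IFN-γ array of set 2 or of set 3.

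For SHP siRNA, 131 genes differed, 21 with a more positive and 110 with a more negative change in set 1. The most positive were Msc (1.41), Postn (1.38), Aqp1 (1.38), Itga8 (1.33), Slfn3 (1.29), C3ar1 (1.27), Clec4e (1.25), Nptx1 (1.23), Rgs1 (1.17) and Nlrp3 (1.15). The most negative were Ifgga4l (-5.64), Cxcl9 (-4.31), Acot1 (-4.17), Cxcl11 (-4.10), Sectm1b (-3.79), Ifgga2l2 (-3.74), Ifi47 (-3.71), Ifit3 (-3.35), Rsad2 (-3.34) and RGD1309362 (-3.14). Of the 10 most positive, Msc, C3ar1, Clec4e, Nptx1, Rgs1 and Nlrp3 were lost with the replicate block, under which 10 genes in all had a more positive change, and those 6 with Postn, Itga8 and Slfn3 were lost when some single arrays were left out. Of the most negative, Ifit3 was lost when any of 6 arrays was left out.

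The lists overlap in part because the comparisons share arrays: the IFN-γ group enters the first and second with opposite sign, and the GW group the second and the last.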

How the results depend on the processing

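The sign under each alternative was followed for the named genes only. No level difference of a named called gene changed sign. The 585 genes called in set 1 became 2397 at a size limit of 0.5 and 68 at a limit of 2, lay between 553 and 665 when a treatment group was left out, and were 605 without set 2 and 593 without set 3. Trend and robust variance gave more genes in every tested comparison: 730 in place of 441 for the difference in the IFN-γ response, 1125 in place of 549 for GW, 495 in place of 131 for SHP siRNA, and, in sets 2 and 3, 1392 in place of 856, 3122 in place of 2081 and 431 in place of 267. Testing only genes above background gave 954 for the difference in the GW response, 364 for SHP siRNA and 1305 for the IFN-γ response of sets 2 and 3. When 1 array of sets 2 or 3 was left out, its cell held 1 array and was assumed to vary like the others. The differences in response then ran from 265 to 382 genes for IFN-γ, 314 to 505 for GW and 41 to 141 for SHP siRNA, and the responses of sets 2 and 3 from 415 to 745, 912 to 1900 and 140 to 253. With the replicate block the differences were 341 genes for IFN-γ, 393 for GW and 74 for SHP siRNA, and the responses of sets 2 and 3 were 731, 1776 and 231. Among 75 called response differences of named genes, the replicate block ended those of Il6 with IFN-γ, Abca1 with GW, and Msc, C3ar1, Clec4e, Nptx1, Rgs1, Nlrp3, Aldh1a2 and Irf1 with SHP siRNA, and trend and robust variance ended those of Il6 and Ubd with IFN-γ. Leaving out 1 array ended the call at least once for 3 of them with IFN-γ (Il6, Ubd and Ifit3), 2 with GW (Abca1 and Tfpi2) and 13 with SHP siRNA (the 8 just named, Irf7, Ifit3, Itga8, Postn and Slfn3). The IFN-γ change of Ifi27l2b in sets 2 and 3, which did not pass, was -0.07 and ran from -0.32 to 0.18 when 1 array was left out, the ends being without the control array of set 3 and of set 2. The causes were not tested.

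Higher calls made up 43.4% of the genes that differed in the GW response and 27.9% after centring. For SHP siRNA the share was 16.03%, 37.4% among genes above background and 41.2% with trend and robust variance. The median difference of the IRF family, hypoxia and glycolysis genes and neuron genes changed sign with the scaling. With 1 array per treatment group in set 1, the size of its differences has no replicate check.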

Other observations

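Genes of the circadian clock were higher in set 1, in a list added after seeing the data. Dbp, a clock-controlled transcription factor, was at 11.76, 11.45, 11.28 and 11.44 in set 1, 9.82, 9.43, 9.52 and 9.56 in set 2 and 9.81, 9.49, 9.59 and 9.18 in set 3. Nr1d1, which encodes the repressor REV-ERBα, was at 10.47, 9.70, 10.85 and 11.07 in set 1, 8.75, 7.60, 9.36 and 8.98 in set 2 and 8.79, 7.58, 9.55 and 8.67 in set 3. Set 1 was above both other sets in every treatment group for both. Of 16 clock genes 5 were higher (Dbp, Nr1d1, Per1, Bhlhe41 and Ciart) and 0 lower, and Bmal1, the activator that runs in antiphase to them, had a mean difference of -0.57 ± 0.24 (SD of 4 matched differences).

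Some genes of other pathways also stood apart. Cyp1a1, a target of the aryl hydrocarbon receptor, was at 8.70, 8.21, 7.17 and 6.98 in set 1, 5.78, 4.97, 6.04 and 5.22 in set 2 and 5.97, 4.92, 6.23 and 5.21 in set 3. Nqo1, an antioxidant enzyme, was between 10.37 and 11.02 in set 1 and between 8.96 and 9.32 in the others. Gad1, which makes the transmitter GABA, was between 7.91 and 8.23 in set 1 and between 5.70 and 6.66 in the others. It did not stand for the neuron list, in which it was the 1 of 16 genes called higher and 1 was called lower. Of the 16, 11 had a negative mean difference, and the median was -0.06.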
